A study of Homo sapiens with 5 samples.

Results

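The places on human chromatin that an antibody against O-GlcNAc recovered were described from 1 chromatin immunoprecipitation (ChIP-seq) library of Flp-In HEK293 T-REx cells. The members were all peaks of the deposited O-GlcNAc list that lay on chromosomes 1 to 22 and X, which were 78700 of the 78825 listed peaks (99.8%). The other 125 peaks lay on the Y chromosome and on unplaced contigs. The cells are a human embryonic kidney line prepared for inserting and switching transgenes, grown without a stated treatment. The antibody was the anti-GlcNAc clone HGAC85, the chromatin was preparation 63, and the matched input of that preparation was the control for peak calling. The series holds 5 libraries, of which the ASXL1 and FOXK1 libraries and the second input serve here only for chromosome extents and for counts set beside a result.

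O-GlcNAc is a single N-acetylglucosamine sugar that the enzyme OGT adds to serine and threonine residues of nuclear and cytoplasmic proteins and that the enzyme OGA removes. In the nucleus it is carried by transcription factors, by RNA polymerase II, by the OGT partner HCF-1 and by Polycomb proteins. The sugar sits on proteins and not on DNA, so a peak marks DNA that was crosslinked to some glycosylated protein, and the antibody does not say which one. The donor of the sugar is made from glucose by the hexosamine pathway, which is why the modification is often studied as a link between nutrients and transcription.

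With 1 library there is no replicate, so no value below has an error between libraries and no test was made. The peak number and the scores are those of the authors' peak caller, MACS. By their range and decimals the scores are p-values on a negative log10 scale multiplied by 10, so a higher score means a stronger call against the input and not a height of signal. The peaks are given by position in the hg19 build, counted from 1. Genes were not placed on the peaks, because no gene annotation or sequence of that build was used here. The list holds no expression values, so the identity of the line was not checked against markers.

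Most O-GlcNAc peaks scored low and were narrow, and few scored far above them. Scores ran from 50 to 3233.06 with a median of 67.1, and 75% of peaks scored below 91.5. In all, 26163 peaks (33.2%, 95% Wilson interval 32.9 to 33.6, counting error only) scored from 50 to under 60. At the other end, 16664 peaks (21.2%) scored 100 or more and 3000 peaks (3.81%) scored 500 or more. These classes are called weak (under 60) and strong (500 or more) below.

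**Figure D1:**
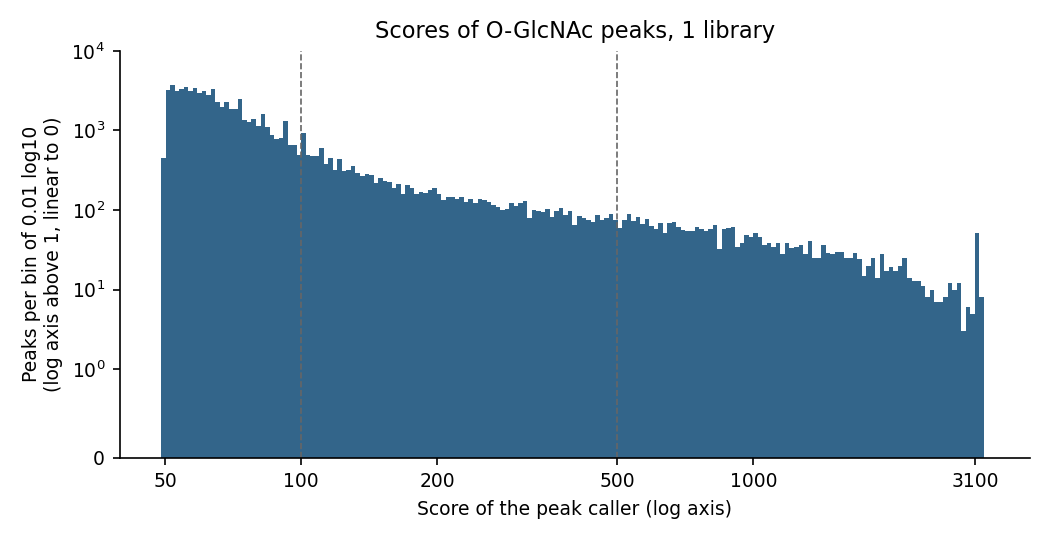
Number of O-GlcNAc peaks (vertical axis, logarithmic above 1) by score (horizontal axis, logarithmic) in 1 library, with dashed lines at scores of 100 and 500. The numbers fall steeply from 50 to about 100 and slowly from there, and a bin at 3100 stands above its neighbours because 47 peaks share that value.

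The list offers a typical peak as well as extreme ones. The 3 peaks nearest to both the median score and the median width lay at chr7:29720402-29720633 (232 bp, score 67.13), chr7:44996541-44996770 (230 bp, score 67.13) and chr15:35278885-35279115 (231 bp, score 66.62). Their widths lay within the average size range of the sonicated fragments, 150 to 400 bp per the labels' protocols. The second of these peaks lay 70929 bp after a peak of score 879.59 and the third 16575 bp after a peak of score 738.32.

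Some score values were shared by many peaks. The commonest score was 73.06, held by 959 peaks, followed by 64.33 with 899, 82.11 with 716, 51.94 with 617 and 91.44 with 519. MACS scores tag numbers with a Poisson model, so peaks with the same tag number over the same expected rate receive the same score. The scores 64.33, 73.06, 82.11, 91.44 and 101.06 were matched, with 1 fitted rate of 1.76 expected events, by the Poisson probabilities of more than 11, 12, 13, 14 and 15 events in that order. The largest deviation was 0.00415 score units, below the 2 decimals of the list. The 3414 peaks at these 5 scores (4.34% of the list) would thus rest on between 11 and 16 events in the caller's count, whichever way it treats the threshold itself. The rate was fitted to the same 5 values. The scores 51.94, 58.2 (407 peaks) and 55.42 (332 peaks) were left out of the fit, although each was commoner than 101.06 (321 peaks). None of these 3 scores lay within 0.01 of a score that this rate gives. In all, 3890 peaks (4.94%) lay within 0.01 of a score that this rate gives for some whole number of events, among them 195 peaks at 110.93 (more than 16 events). The list does not give the expected rate of any peak.

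The top of the scale is not an order of strength. The highest score, 3233.06, equals, on that scale, the smallest positive number that double-precision arithmetic can hold. Above 3100 there were 13 peaks, exactly at 3100 there were 47, and the next score below was 3065.16. How the caller came to give the value 3100 is not stated in the sources used here, so the 60 peaks at 3100 or more were treated as 1 class. Their widths overlapped, from 613 to 2414 bp above 3100 and from 508 to 2394 bp at 3100. The medians were 1033 and 908 bp, and the next 60 peaks in the list, down to a score of 2605.34, had a median of 1059 bp.

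Chromosome 19 held 12 of these 60 peaks, chromosome 1 held 9, chromosome 12 held 7 and chromosome 17 held 6. From this class the 12 peaks with the highest listed scores are described singly as examples, without reading their order as strength. They lay on 8 chromosomes, had a median width of 1011 bp, and 3 of them had no other peak within 10 kb. The peak at chr1:156022707-156025120 (score 3233.06), was 2414 bp wide and had neighbours of score 73.96 and 52.21 at 8897 and 8166 bp. The peak at chr5:173043323-173044089 (score 3228.29), was only 767 bp wide and had no other peak within 10 kb.

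The peak at chr12:6797556-6799211 (score 3192.97, 1656 bp), also had no peak within 10 kb. Its nearest peak before it, at 24691 bp, was itself scored 3100, so 2 of the 60 top peaks were neighbours in the list there. Another pair of strong neighbours lay on chromosome 19, where the peak at chr19:37340501-37342340 (score 3100, 1840 bp) followed a peak of score 2520.88 after 10443 bp. The peak at chr12:82751860-82752892 (score 3124.06) had 180604 bp free of peaks before it, the longest such stretch beside any of the 12.

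In 4 of the 12, a weaker peak adjoined the strong one within 100 bp. At chr19:44555679-44556667 (score 3196.41) a peak of score 108.15 and 488 bp ended 8 bp before it. At chr22:41864375-41865249 (score 3163.43) peaks of score 67.43 and 71.15 lay on both sides, at 62 and 64 bp. At chr9:102860892-102862096 (score 3173.66) a peak of score 100.39 lay at 66 bp, while the next peak on the other side was 112863 bp away. At chr1:110576860-110577472 (score 3198.08) a peak of score 132.51, with 617 bp as wide as the strong peak of 613 bp, followed after 50 bp.

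The remaining 4 of the 12 had other settings. The peak at chr16:30620855-30622351 (score 3168.29) was 1497 bp wide, and chr5:102455425-102456411 (score 3156.06) had a peak of score 66.56 at 2192 bp. The peak at chr1:38155920-38156713 (score 3135.64) was followed after 948 bp by a second strong peak of score 691.69 and 1098 bp. The peak at chr8:28747010-28748828 (score 3110.26) was 1819 bp wide, with 101550 bp free of peaks before it.

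Peak widths ran from 90 to 5155 bp with a median of 231 bp, and 90% of peaks were narrower than 613 bp. Together the peaks covered 25.035 Mb, or 8.25 kb per Mb of chromosome. The class from 200 to under 250 bp was the most common, with 26516 peaks (33.7%). Peaks of 1000 bp or more numbered 2216 (2.82%), and 57 were of 2000 bp or more.

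Width and score did not rise together throughout. Across all 78700 peaks of the library, Spearman's rho between width and score was 0.42, but it was −0.40 over the 21378 peaks under 200 bp and 0.65 over the 57322 peaks of 200 bp or more. The median score was 79.1 for peaks under 150 bp, 63.0 from 150 to under 200 bp and 58.7 from 200 to under 250 bp. From there it rose to 70.2, 87.7, 198, 407 and 598 in the wider classes. None of the 21378 peaks under 200 bp reached 500, and 34 of the 57 peaks of 2000 bp or more did (59.6%).

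**Figure D2:**
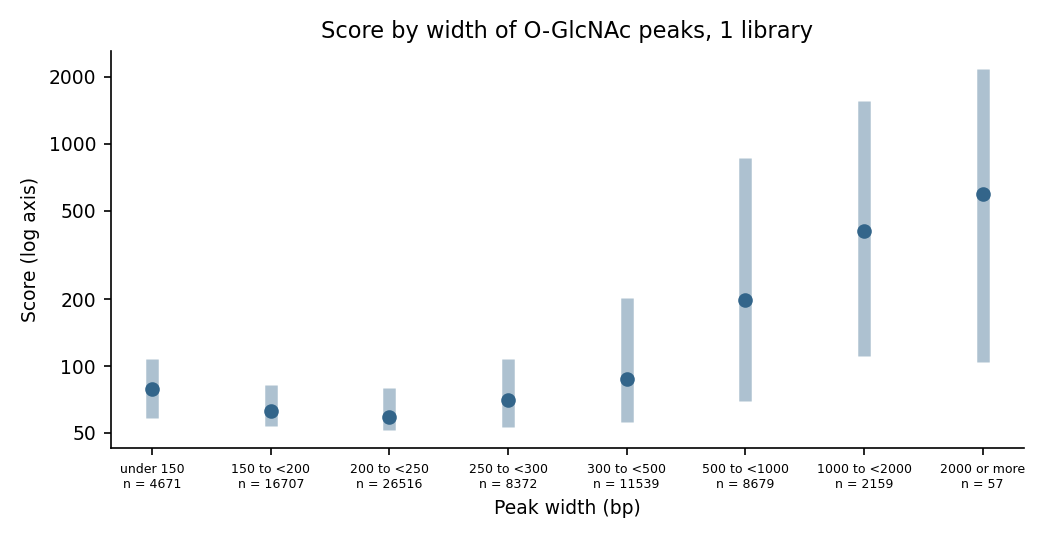
Score (vertical axis, logarithmic) of O-GlcNAc peaks by class of width in bp (horizontal axis), in 1 library, with points at the median, bars from the 10th to the 90th percentile and the number of peaks under each class. The median is lowest from 200 to under 250 bp (58.7) and rises to 598 in the 57 widest peaks.

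The peaks at the 5 fitted score values were narrow. Of the 3414 peaks at the 5 fitted scores, 3384 were under 200 bp, and they made up 1871 of the 4671 peaks under 150 bp (40.1%). At and within 0.01 of the score of 64.33 the median width was 156 bp, at 73.06 it was 148 bp, at 82.11 it was 140 bp, at 91.44 it was 134 bp and at 101.06 it was 127 bp. The median width was thus lower at each higher score of the 5. Strong peaks were seldom narrow. Only 12 of the 3000 were under 300 bp, and the narrowest lay at chr19:49486764-49486986 (223 bp, score 659.04), chr22:37655198-37655421 (224 bp, score 814.49) and chr5:75820717-75820954 (238 bp, score 669.07).

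Of the 10 widest O-GlcNAc peaks, 5 scored 500 or more, 3 lay on chromosome 19, and none was among the 60 peaks at 3100 or more. The widest, at chr6:32935832-32940986, spanned 5155 bp with a score of 990.48, and it was followed after 649 bp by a peak of 719 bp and score 119.08. The second, chr19:39339585-39342935, was 3351 bp wide and scored 2103.44, the highest score of the 10. The third, chr15:75742551-75745749, was 3199 bp wide with a score of 1152.10, and a strong peak of 1226 bp and score 746.29 followed it after 287 bp.

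Width and score parted at several of the widest peaks. At chr1:226249098-226252286 a peak of 3189 bp scored only 83.33, rank 23311 of the list. At chr17:27051518-27054617 a peak of 3100 bp scored 100.75, although a peak of score 2977.57 lay 4076 bp before it and one of score 416.92 lay 228 bp after it. The peak at chr19:41220469-41223557 (3089 bp) scored 207.99, rank 7010, and its next neighbour, 31979 bp away, was 2392 bp wide and scored 2168.84. Of all 2216 peaks of 1000 bp or more, 190 (8.57%) scored below 100, so a long recovered stretch did not always come with a strong call.

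The other 4 of the 10 widest were chrX:153235634-153238524 (2891 bp, score 734.30), chr1:144930411-144933275 (2865 bp, score 114.49), chr1:17066049-17068894 (2846 bp, score 280.79) and chr19:36133929-36136652 (2724 bp, score 573.02). The peak on the X chromosome stood alone, with 22559 bp before and 60129 bp after it. The last of them had a peak of 1170 bp and score 2175.78 at 13658 bp before it and one of 1541 bp and score 175.31 at 2130 bp after it.

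Neighbouring peaks did not overlap, and the gap between them had a median of 17.2 kb and a mean of 37.1 kb. The middle 50% of gaps lay between 5.36 and 42.3 kb, and 10% were shorter than 1.12 kb. Per kb of gap, pairs became steadily rarer with distance. There were 1746 pairs of neighbours within 100 bp, which is 17460 per kb, 7865 per kb from 100 to 500 bp, 2637 per kb from 2 to 5 kb and 203 per kb from 50 to 100 kb.

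The scores within a pair were somewhat further apart at short gaps. The median ratio of the higher to the lower score, which is at least 1 by construction, was 1.62 within 100 bp, 1.35 from 1 to 2 kb, 1.32 from 10 to 50 kb and 1.24 over 100 kb. Within 100 bp the higher-scoring member was the wider in 1200 of the 1746 pairs (68.7%), with median widths of 411.5 and 278 bp. It stood at the higher coordinate in 878 pairs and at the lower coordinate in 867, so neither side was favoured, and 1 pair had equal scores. A strong peak was present in 13.9% of pairs within 100 bp, in 12.1% from 100 to 500 bp and in 6.14% from 2 to 5 kb. The share was higher again from 5 to 10 kb (7.46%) and from 10 to 50 kb (7.37%), and lowest over 100 kb (4.23%). In 139 of the 243 closest pairs with a strong peak, the partner scored below 100. Pairs of 2 strong peaks numbered 10 within 100 bp. A neighbour of any score within 100 bp was found for a minority of strong peaks. Of the 3000, 2753 had none, 241 had one on 1 side and 6 had one on both sides.

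**Figure D3:**
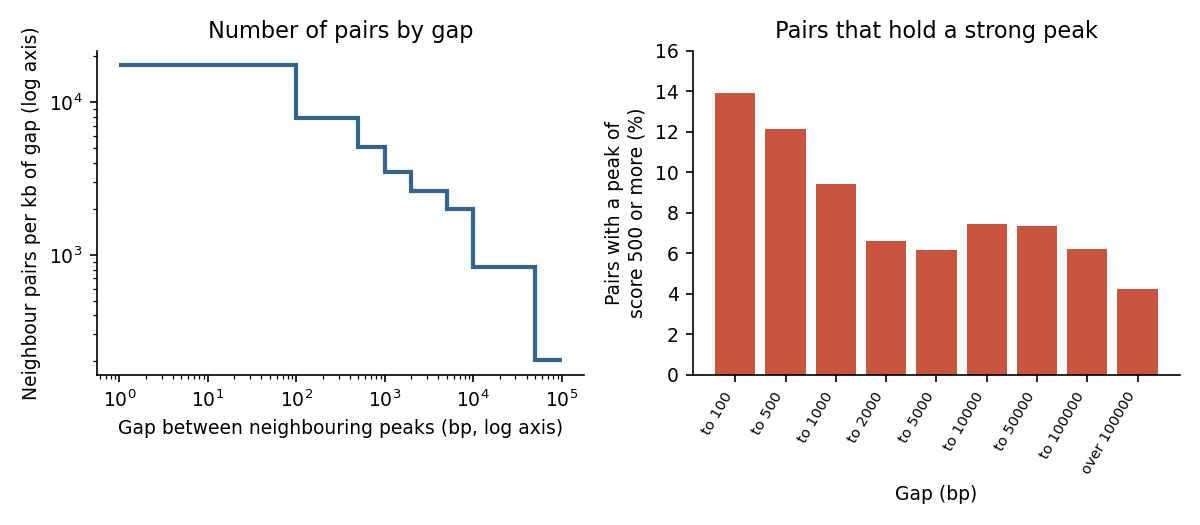
Left, number of neighbouring O-GlcNAc peaks per kb of gap (vertical axis) against the gap in bp (horizontal axis), both logarithmic; right, percentage of neighbour pairs that held a peak of score 500 or more, by gap. Pairs per kb fall from 17460 at gaps within 100 bp to 203 at 50 to 100 kb, and strong peaks are in 13.9% of the closest pairs and 4.23% of those over 100 kb apart.

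Strong peaks had nearer neighbours than weak ones. The median distance to the nearest other peak was 8551 bp for weak peaks, 5013 bp for scores from 100 to under 200 and 5843 bp for scores from 500 to under 1000. A neighbour within 1 kb was found for 13.9% of weak peaks and 28.2% of the class from 500 to under 1000. Even so, the scores of successive peaks were almost unrelated, with a Spearman's rho of 0.074 over 78677 pairs of neighbours from the same library. It was 0.084 over the 7426 pairs within 1 kb and 0.061 over the 49781 pairs more than 10 kb apart. A few strong peaks stood far from any other. The most isolated, chr4:100484570-100485385 (816 bp, score 1664.38), had no other peak for 453264 bp before it and 278266 bp after it, and chr9:69262256-69262889 (634 bp, score 658.91) had none for 196528 and 600048 bp.

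Peaks were joined into clusters where 3 or more followed each other with gaps of at most 5 kb. By this measure 46815 peaks (59.5%) stood alone and 9298 pairs were formed. In all, 13289 peaks (16.9%, Wilson interval 16.6 to 17.1) lay in 3732 clusters with a median span of 5.50 kb. The interval treats peaks as independent, which members of a cluster are not, so it may be too narrow. The share depended strongly on the gap allowed, with 3.74% of peaks in clusters at 1 kb and 39.4% at a gap 2.5 times as long as the 5 kb used. It depended on the score as well, with 4.80% when only peaks of score 100 or more were kept. Most clusters were small, since 2476 of them held 3 peaks, 198 held 6 or more and 9 held 10 or more.

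The clusters of 6 or more peaks were not made of the strongest peaks. The median score was 65.3 for single peaks, 71.4 for peaks in clusters and 73.4 in the 198 clusters of 6 or more. In the latter, 30.6% of peaks scored 100 or more, against 17.9% of single peaks, while 3.62% were strong, a share close to that of single peaks (1592 of 46815). A strong member was present in 508 of the 3732 clusters (13.6%) and in 8.73% of pairs, and 3.40% of single peaks were strong. Of all peaks 3.81% were strong, and a group with more peaks has more chances to hold one. Chromosome 1 held 35 of the clusters of 6 or more, chromosome 6 held 34 and chromosome 12 held 16.

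The largest cluster, at chrX:73056255-73072764, had 16 peaks in 16.5 kb, which together covered 49.8% of the stretch. Its scores ran from 54.64 to 480.37, and 11 of the 16 reached 100. The scores were unevenly spread along it. The 2 highest, 480.37 over 1195 bp and 447.29 over 470 bp, lay at its high-coordinate end, and the 2 peaks at the low-coordinate end scored 82.85 and 87.79. It also remained the largest when peaks under 100 were left out, with 11 peaks in 12.8 kb and a median score of 228. The same stretch held 8 ASXL1 and 9 FOXK1 peaks, from lists that had 21.5 and 4.63 peaks per Mb on the whole X chromosome.

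The second cluster, at chr12:54399507-54434339, was looser, with 15 peaks in 34.8 kb and a median gap of 1077 bp. Its highest score was 354.81, over 1143 bp, and 6 peaks reached 100. The third, at chr22:46459692-46484145, had 12 peaks in 24.5 kb with a highest score of 248.75 and wide members, at a median of 614.5 bp. In these 2 stretches ASXL1 had 18 and 19 peaks, more than O-GlcNAc, and FOXK1 had 4 and 1. The lists also differed in this order over the whole chromosomes. ASXL1, O-GlcNAc and FOXK1 had 41.6, 34.5 and 9.39 peaks per Mb on chromosome 12, and 40.9, 22.4 and 5.15 on chromosome 22.

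The next clusters lay on chromosome 1. The fourth, at chr1:232348579-232363514, held 11 peaks of which only 2 reached 100 and none passed 148.51. The same stretch held 1 ASXL1 peak, against 7 or more in the other 4 of the 5 clusters, and 2 FOXK1 peaks. The fifth, at chr1:154971549-154990370, had 10 peaks, among them 2 strong ones of 746.75 and 521.99 and another of 463.97, with 7 that scored below 200. It shared its number of peaks with 4 others, over which it was placed for its highest score. These included chr6:26195576-26209675 (highest score 616.07), chr7:27204965-27229496 (480.77) and chr11:65185127-65198257 (436.79, with 7 of 10 peaks at 100 or more).

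**Figure D4:**
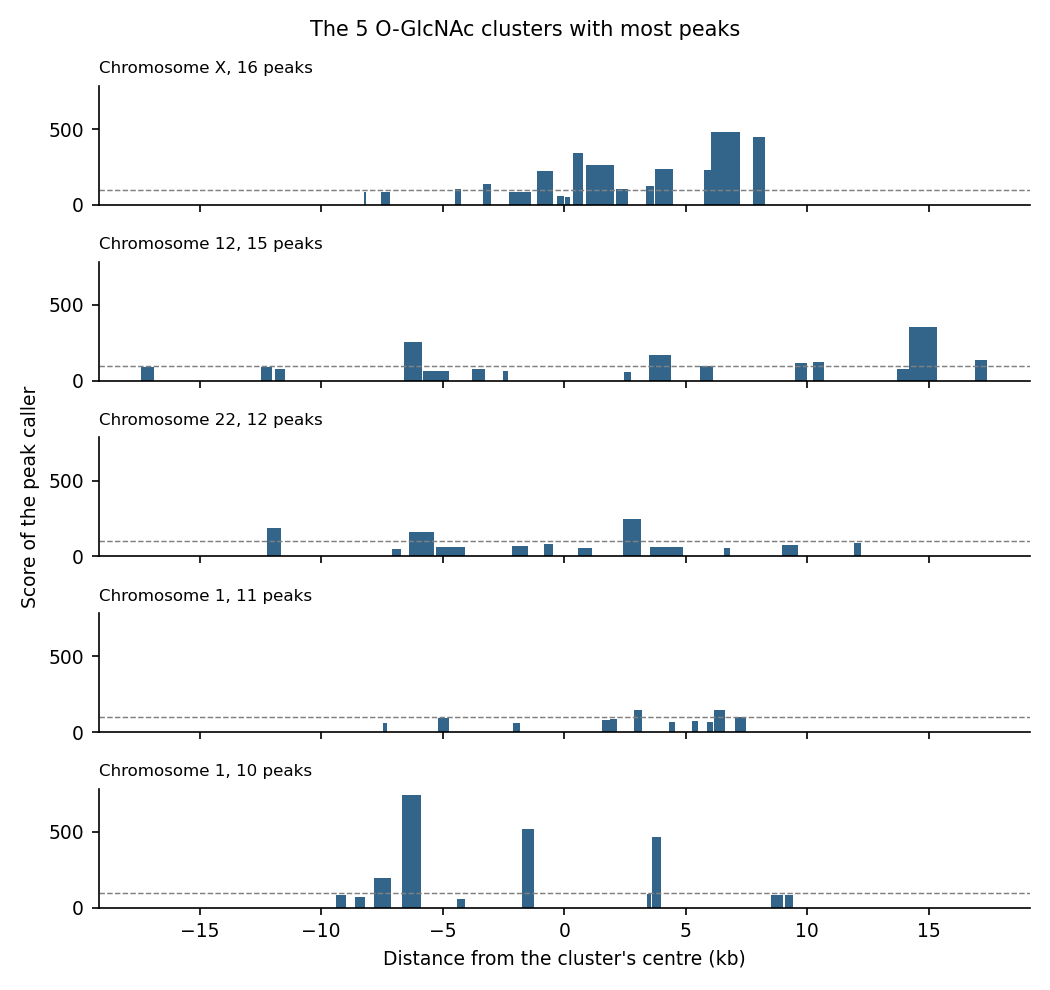
Score (vertical axis) of each O-GlcNAc peak in the 5 clusters with most peaks, against its distance from the cluster's centre in kb (horizontal axis); the width of a bar is the width of the peak and the dashed line marks a score of 100. The cluster on the X chromosome has 16 peaks with the highest scores at its right end, and the fourth, on chromosome 1, has no peak above 148.51.

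Along the genome, weak and strong O-GlcNAc peaks followed different orders of chromosomes. Over the 23 chromosomes there were 25.9 peaks per Mb, of which 8.62 were weak and 0.989 strong. Weak peaks were densest on chromosome 6 (13.7 per Mb), chromosome 5 (12.9), chromosome 1 (12.8), chromosome 10 (12.1) and chromosome 12 (11.9), and least dense on chromosome 4 (5.12). The range from the lowest to the highest was 2.69 times. For strong peaks the range was 19.8 times, from 0.339 per Mb on chromosome 13 to 6.72 on chromosome 19. Chromosome 19 was followed by 2.64 on chromosome 17, 1.81 on chromosome 16 and 1.60 on chromosome 20. The extent of chromosome 13 counts the stretch before its first peak at 19237125, which lowers its density. Chromosome 4, with peaks near both ends, had 0.361. Spearman's rho between both densities over the 23 chromosomes of the library was 0.44.

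Chromosome 19, a small and gene-dense chromosome, stood apart by its strong peaks. It made up 1.95% of the extent and held 3.12% of all peaks and 2.08% of weak peaks, but 397 of the 3000 strong ones (13.2%). Its peaks were also wider and scored higher, with medians of 400 bp and 88.2, against 231 bp and 67.1 for the whole list, and 45.0% of them scored 100 or more. Chromosome 5 was the reverse. It ranked second for weak peaks and fifteenth for strong ones, with 0.714 per Mb, and 129 of its 6585 peaks were strong, against 397 of 2459 on chromosome 19.

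Chromosomes 1, 5, 6, 10 and 12 together held 41.1% of the peaks on 28.7% of the extent, yet 30.8% of the strong peaks. The FOXK1 list came from another chromatin preparation. It was also dense on these 5 chromosomes, with 10.6, 9.35, 11.4, 10.5 and 9.39 peaks per Mb in that order. On chromosome 17, outside this group, FOXK1 had 9.70 per Mb, more than on chromosomes 5 and 12. Elsewhere its highest densities were 9.002 per Mb on chromosome 19 and 7.77 on chromosome 20. Its lowest were 4.55 on chromosome 4 and 4.45 on chromosome 18. The ASXL1 list, from the same preparation as O-GlcNAc, had 43.0, 34.8, 40.4, 37.6 and 41.6 per Mb on chromosomes 1, 5, 6, 10 and 12. Its lowest density was 17.3, on chromosome 4. Its densest chromosomes were 19 with 73.6 per Mb and 17 with 60.02, where the O-GlcNAc list had 41.6, its highest density, and 38.5. ASXL1 also had 42.1 per Mb on chromosome 20 and 40.9 on chromosome 22, where O-GlcNAc had 30.7 and 22.4. All 3 lists come from the same cell line.

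**Figure D5:**
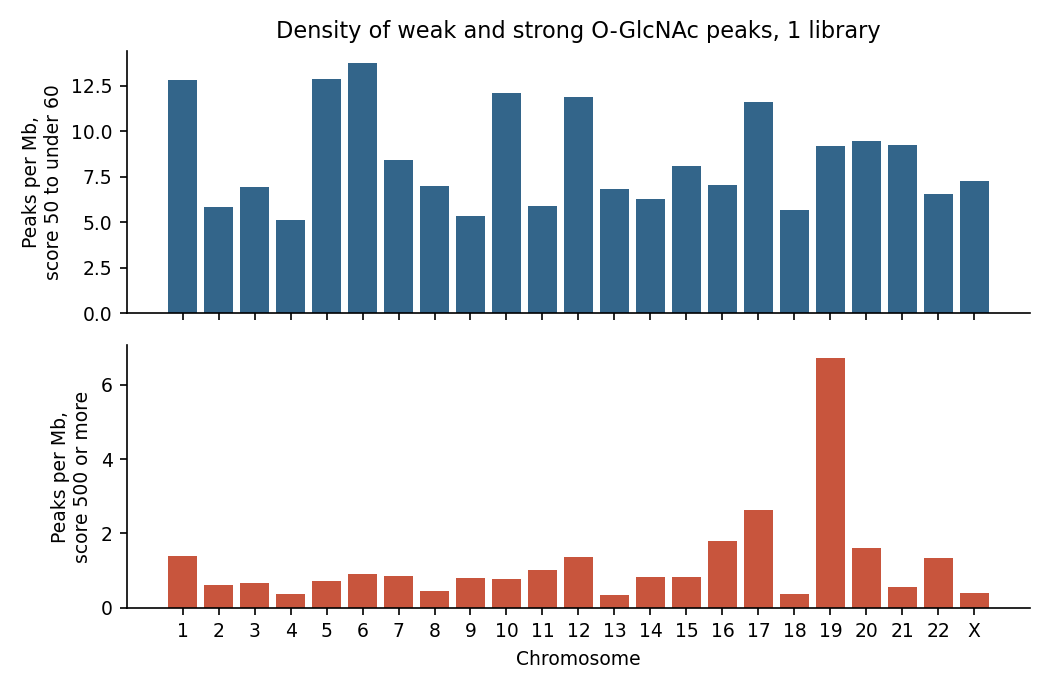
O-GlcNAc peaks per Mb (vertical axes) on each chromosome (horizontal axis) in 1 library, for scores from 50 to under 60 (top) and of 500 or more (bottom). Chromosomes 1, 5, 6, 10 and 12 are high in the upper panel, from 11.9 to 13.7 per Mb, and chromosome 19 stands out in the lower panel with 6.72 per Mb.

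Density also changed within chromosomes. On 18 of the 23 the first peak lay in the first 1 Mb. It lay at 19237125 on chromosome 13, 19082490 on chromosome 14, 20123665 on chromosome 15, 16161049 on chromosome 22 and 9968384 on chromosome 21, the acrocentric chromosomes whose short arms are largely unassembled in hg19. The longest stretches without a peak were 21.2 Mb on chromosome 1 (121347096 to 142536463), 18.3 Mb on chromosome 9 and 12.6 Mb on chromosome 16, and no other gap between neighbours passed 5 Mb.

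The 2 sides of the longest free stretch differed most, among the chromosomes with peaks near both ends, on X and on chromosome 8. The X chromosome had 13.6 peaks per Mb below its free stretch and 26.3 above it, and chromosome 8 had 30.6 below and 16.5 above. Weak peaks followed, with 4.35 and 9.40 per Mb on X and 11.1 and 5.42 on chromosome 8. Strong peaks differed less, at 0.394 and 0.417 per Mb on X and 0.526 and 0.423 on chromosome 8. On chromosome 8 the other lists fell in the same way, with 34.2 and 19.2 per Mb for ASXL1 and 8.82 and 4.22 for FOXK1. On X their sides were closer, with 19.9 and 23.2 per Mb for ASXL1 and 3.96 and 5.10 for FOXK1. Chromosome 6 was denser below its free stretch, at 49.0 against 37.5 peaks per Mb, and more so for strong peaks, at 1.70 against 0.514.

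In windows of 1 Mb the number of peaks had a median of 23, and 173 of 3049 windows held 0 peaks. Of the 4 densest windows, 3 formed 1 run on the short arm of chromosome 6, the arm that carries the largest cluster of histone genes. There were 108 peaks from 26 to 27 Mb, 114 from 27 to 28 Mb and 122 from 28 to 29 Mb. Strong peaks were 7 of 108, 6 of 114 and 6 of 122 in them, where 3.81% of the whole list was strong. Over the 23 chromosomes there were 0.989 strong peaks and 25.9 peaks of any score per Mb. FOXK1 had 66, 54 and 48 peaks and ASXL1 had 133, 158 and 163 in the same windows. The other window among the 4, chromosome 5 from 124 to 125 Mb, had 114 peaks and no strong one. Next came chromosome 6 from 16 to 17 Mb with 103 peaks and chromosome 1 from 233 to 234 Mb with 101, also without a strong peak.

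Of the 3049 windows of 1 Mb, 1831 (60.1%) had no strong peak, and the 237 windows with most strong peaks (7.77%) held 50% of the 3000. The windows with most strong peaks were chromosome 19 from 58 to 59 Mb, where 24 of 58 peaks were strong, 44 to 45 Mb with 23 of 83 and 49 to 50 Mb with 22 of 76. Chromosome 17 from 7 to 8 Mb had 22 of 74 and chromosome 16 from 30 to 31 Mb had 21 of 56. In windows of 5 Mb, the 6 with most strong peaks were all on chromosome 19, led by its last window with 69 strong peaks of 178. The window with most peaks of any score, chromosome 1 from 230 to 235 Mb, held 431 peaks of which 163 were weak and 9 strong.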

How the data were processed

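The members and the settings were chosen with earlier results of these data known, and the classes of score, width and gap and the windows were set after the data had been seen. Fixation used 1% formaldehyde (10 min), and the library was cut from a gel at 250 to 350 bp and given 18 rounds of PCR, per the labels' protocols. The submitters' processing notes name Bowtie2 2.0.0, MACS 1.4 and hg19. The deposited values are a start, an end and a score per peak, which the authors' caller gave 1 ChIP library against its input. Caller settings and library depth are not given in the sources used here. Peak numbers ran from 1 to 78825 without a gap.

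Computed here, with Python 3.11.15, pandas 2.3.3 and scipy 1.17.1, were classes, gaps (bases between neighbours), clusters, peaks per Mb and Spearman's rho. The extent of a chromosome was the highest peak end in the 3 deposited lists. Wilson intervals (95%) cover counting error only. The clustering and the Poisson fit were run on a simulated list in which every score followed 1 Poisson rate. This checked the code only, since most scores of the deposited list do not follow 1 rate. The rule for named peaks took the 12 highest scores (ties to the wider peak), the 10 widest, the 5 clusters with most peaks and the 3 nearest both medians. The strong peaks named as narrowest or most isolated, and the windows, were chosen after their values were seen. Shares at gene starts, gene lists and motifs were planned but need an hg19 annotation or sequence, so they were not run, and no sequence is printed.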

Additional observations from a re-analysis of the deposited data

Results flagged for a closer look

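Outside chromosomes 1 to 22 and X, 125 O-GlcNAc peaks were listed and enter none of the values above. Of these, 22 were on the Y chromosome and 103 on 24 contigs. The contig peaks had a median width of 260 bp and a median score of 64.5, 28 scored 100 or more and 6 scored 500 or more, with a highest score of 3100.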

How the results depend on the processing

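No paired analysis was possible because there is only 1 O-GlcNAc library, and leaving out a replicate was likewise not possible. A score of at least 100 left 16664 peaks and 9.88 Mb of covered length. The 10000 highest-scoring peaks covered 7.35 Mb, and the list without the widest 1% covered 23.8 Mb. The share of peaks in clusters was 16.9%, and became 3.74% at a gap of 1 kb, 39.4% at a gap 2.5 times as long as 5 kb, 4.80% at a score of at least 100 and 16.6% without the widest 1%. Spearman's rho of width and score rose to 0.65 at a score of at least 100, and without scores of 3100 or more it stayed at 0.42. Density relative to all 23 chromosomes, which was 1.60 for chromosome 19, 1.57 for chromosome 6, 1.404 for chromosome 5 and 0.586 for chromosome 4, became 3.41, 1.41, 1.03 and 0.525 at a score of at least 100. By covered length it was 2.74, 1.47, 1.25 and 0.508. Chromosome 19 thus led under each of these settings, while chromosome 5 came close to the average at the higher score. The share of strong peaks on chromosome 19 was 11.0% from a score of 300, 17.7% from 1000 and 14.8% by covered length, 3 settings added after the data had been seen. Apart from shorter lists and shorter or longer gaps, the cause of these changes was not tested. The depth of the library is not given in the sources used here, and no place with a score under 50 was listed.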
